A study of Mus musculus with 36 samples.

Results

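Day 7 was compared with day 0 in a culture of mouse HM1 embryonic stem cells led from neuromesodermal progenitors towards motor neurons. The comparison uses 6 of the 36 libraries, the 3 biological replicates labelled day 0 and the 3 labelled day 7, taken by their labels and by no measured value. Polyadenylated RNA was sequenced. Cells at day 0, labelled control, had been plated without feeders on day -3 in N2B27 medium with 10 ng/ml bFGF, and from day -1 had also received 5 µM CHIR99021, 10 µM SB431542 and 2 µM DMH1. Cells at day 7 had the same history and then 7 days in N2B27 with 100 nM retinoic acid (RA) and 500 nM SAG. CHIR99021 turns on Wnt signalling by blocking a kinase, SB431542 and DMH1 block the activin and the BMP receptors, and SAG activates the Hedgehog pathway through Smoothened. No group was kept for 7 days without RA and SAG, so time in culture and these agents cannot be told apart. All libraries come from 1 cell line, and the p-values measure only the spread between its cultures.

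Neuromesodermal progenitors lie in the caudal epiblast of the embryo, are kept by Wnt and FGF signals, and supply the spinal cord as well as the somites. Retinoic acid ends that state and favours neural fate, while Sonic hedgehog from the notochord and floor plate divides the ventral neural tube into domains that each express their own homeobox and bHLH factors. Each domain first makes neurons, motor neurons among them, and later glia.

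Of 17990 genes tested, 15337 were called changed at an adjusted p under 0.05 (edgeR's quasi-likelihood test, Benjamini-Hochberg adjustment), which is 85.3%. Higher at day 7 were 7929 genes, or 44.1%, and lower were 7408, or 41.2%. Changes of at least 2-fold were called up in 28.0% and down in 22.9% of genes. At least 16-fold changes were called in 1213 genes that rose and 575 that fell. The 3 values of one day did not overlap those of the other for 86.3% of genes. The median log2 fold change was 0.05 and its median size 1.06. A list with 4 in 5 members called is therefore like all genes in that count, and the lists below are read by direction and size. On deposited TPM (transcript abundance per length, as shares of a fixed total) fold changes differed gene by gene from those on counts, the median shift being 0.34 upwards, and of the genes called with limma on log2(TPM + 1) 63.5% rose, against 51.7% of those called on counts. The 6 libraries held 29187652 to 34249990 counts. Mitochondrial genes took 0.982% to 1.33% of counts at day 0 and 1.74% to 1.83% at day 7.

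**Figure D1:**
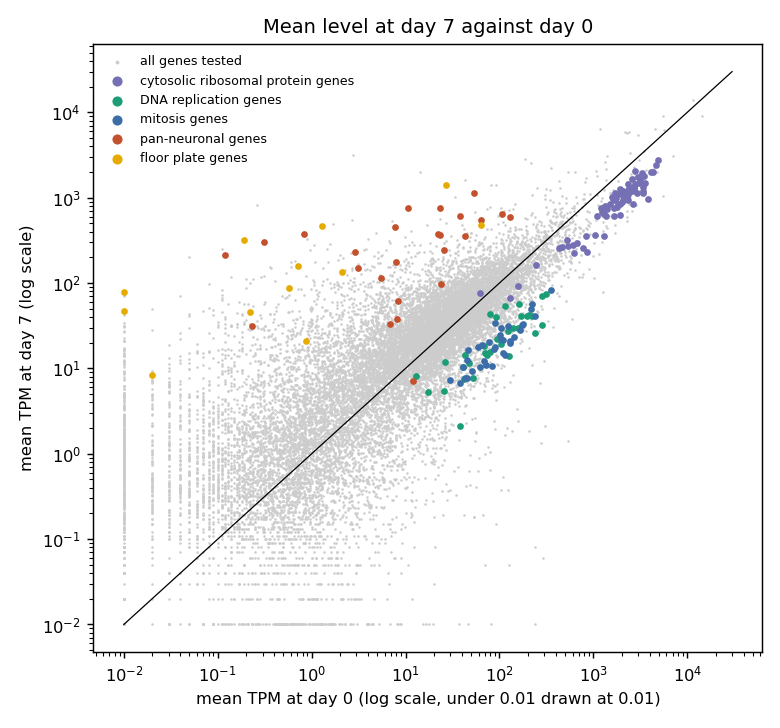
Mean TPM of each gene at day 7 against day 0, both on log axes, with 5 lists in colour. Ribosomal protein, DNA replication and mitosis genes lie below the diagonal except for Rpl5, and floor plate and pan-neuronal genes lie above it except for Nefh.

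Genes of the caudal epiblast had the lowest median change of the 60 gene lists. Of 17 genes of that state, 16 fell and 1 rose, with a median log2 fold change of -7.41, beside 0.05 over all genes. Their summed level was 1341 to 1471 TPM in the day 0 libraries and 22.9 to 27.4 TPM in the day 7 libraries. Nkx1-2, a homeobox gene of the caudal lateral epiblast, stood at 279.9, 301 and 293 TPM at day 0 and at 0.05, 0.04 and 0.08 TPM at day 7. All 3 day 0 libraries were high, the day 7 libraries held 9 counts in all, and the log2 fold change was -12.62 (SE 0.17, adjusted p = 5.22e-35). Cdx1, Cdx2 and Cdx4 encode the caudal homeobox factors that activate trunk Hox genes. Cdx1 was at 67.2, 87.2 and 90.0 TPM at day 0 and had no count in any day 7 library, so it was at least 886-fold lower against a floor of 3 counts per library. Cdx4, at 37.6, 38.9 and 35.3 TPM at day 0, also had no count at day 7 and was at least 457-fold lower. Cdx2 went from 224, 249 and 247 TPM to 0.11, 0.03 and 0.11 TPM. In bulk RNA, fewer cells of a type and less RNA per cell cannot be told apart, and this holds for every result here.

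Brachyury (T), the T-box factor shared by neuromesodermal progenitors and early mesoderm, was at 34.7, 40.3 and 36.6 TPM at day 0 and at 1.66, 1.97 and 0.73 TPM at day 7. All day 7 libraries lay below all day 0 libraries but not at 0, and T fell by 5.19 on the log2 scale (SE 0.25). Among the ligands of this state, Wnt8a stood at 230.1, 241 and 242 TPM at day 0 and was listed at 0.00, 0.04 and 0.00 TPM at day 7. Fgf8 and Wnt3a, which act in the tail bud, had 1 count and 2 counts in the day 7 libraries together. The one member that rose was Cyp26a1, an enzyme that breaks down retinoic acid, described with the retinoid genes. At day 0 the libraries labelled neural progenitor thus held high T, Nkx1-2 and Cdx levels beside only 4.16 ± 0.26 TPM of Sox1 and 1.10 ± 0.10 TPM of Pax6 (mean ± SD, n = 3), the transcription factors that define early neural progenitors.

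**Figure D2:**
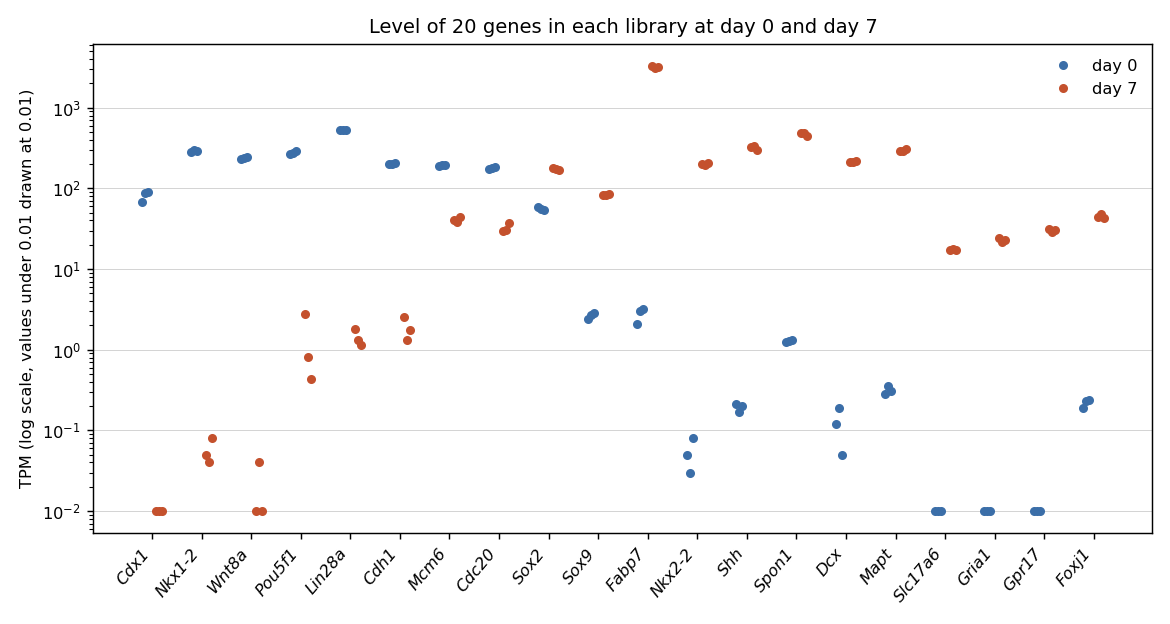
TPM in each of the 6 libraries for 20 genes, on a log axis, with day 0 and day 7 libraries as separate points. Cdx1, Nkx1-2, Wnt8a, Pou5f1, Lin28a and Cdh1 drop the furthest, and genes of floor plate, radial glia and neurons rise from low levels. Replicates of a day lie close together except below about 3 TPM, and values under 0.01 TPM are drawn at 0.01.

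Pluripotency and epiblast factors fell in 17 of 23 tested members, with a median log2 fold change of -4.47. Pou5f1, which encodes Oct4, was at 267, 272 and 287 TPM at day 0 and 2.75, 0.82 and 0.43 TPM at day 7, a log2 fold change of -8.29 (SE 0.19, adjusted p = 1.01e-28). The day 7 libraries were all low, and replicate 1 was the highest of them. Fgf5, a ligand of the primed epiblast, was at 0.69 ± 0.22 and 0.63 ± 0.15 TPM and did not pass (adjusted p = 0.551). Tdgf1, Klf4 and Nodal did not pass either, with log2 fold changes of -0.34, -0.10 and 0.26. Lefty1 and Lefty2, secreted inhibitors of Nodal, were called higher, Lefty1 by 3.51 on the log2 scale. Lefty2 had no count at day 0 and was at 0.35, 0.08 and 0.11 TPM at day 7, at least 2.19-fold higher and still at a trace level.

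All 8 genes of the Lin28 axis fell, and none rose. Lin28a, the RNA-binding protein that blocks maturation of the let-7 microRNAs in embryonic cells, was at 531, 531 and 535 TPM at day 0. At day 7 it was at 1.79, 1.33 and 1.14 TPM, a log2 fold change of -8.90 (SE 0.08, adjusted p = 7.85e-40). Trim71 and Hmga1 fell by 5.66 and 4.27 on the log2 scale. Igf2bp2, at -0.56, moved least. Hmga2, a chromatin protein and let-7 target, went from 60.3 ± 2.34 to 11.9 ± 1.14 TPM.

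Epithelial genes were lost along with these. Of 13 tested endoderm and surface epithelium markers, 10 fell and none rose, and 5 further members of that list of 18 were too low to test. Cdh1, the epithelial cadherin, stood at 202, 202 and 206 TPM at day 0 and 2.51, 1.33 and 1.75 TPM at day 7. Cdh2, the neural cadherin, went the other way, from 60.1, 60.8 and 58.0 TPM to 288, 289 and 263 TPM. The cadherin that dominated at day 0 was thus the lower one at day 7 in every library, and the log2 fold changes were -7.26 (SE 0.12) and 1.89 (SE 0.04). Of 12 classical cadherins 9 rose and 2 fell. Cdh6 and Cdh11, cadherins of neural and mesenchymal cells, rose by 5.89 and 5.52 on the log2 scale. Epcam, an epithelial adhesion molecule, fell from 109 ± 5.77 to 0.54 ± 0.13 TPM, and Esrp1, the epithelial splicing regulator, by 7.63 on the log2 scale.

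Chromatin genes divided. Dnmt3b, a de novo DNA methyltransferase of the epiblast, was at 114, 114 and 117 TPM at day 0 and 1.86, 1.61 and 1.46 TPM at day 7. Dnmt3a, its paralogue, rose from 52.4 ± 1.25 to 79.7 ± 4.24 TPM. The 9 genes of DNA methylation and the Tet enzymes had 4 members higher and 5 lower, and their median log2 fold change of -0.47 on counts was 0.19 on log2(TPM + 1). All 5 tested BAF chromatin-remodelling subunits of neurons rose, with a median of 3.61. Actl6b, the actin-like subunit of the neuronal complex, rose from 0.15, 0.04 and 0.09 TPM to 48.2, 48.8 and 49.4 TPM. Its progenitor counterpart Actl6a fell from 117 ± 1.54 to 56.6 ± 1.35 TPM, so it was still the more abundant of the pair by mean TPM at day 7.

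Genes of cell division fell as a block. All 32 DNA replication genes fell by at least 2-fold, with a median log2 fold change of -2.54 and a range from -4.61 to -1.02. All 35 mitosis genes did the same, with a median of -2.78 and a range from -3.35 to -1.80. The replication genes summed to 3731 to 3752 TPM at day 0 and 808 to 903 TPM at day 7. For the mitosis genes these sums were 3808 to 3819 TPM and 734 to 888 TPM.

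Promoters of such genes are known to carry the CCAAT box, bound by the factor NF-Y, the cell cycle homology region (TTTGAA), bound by the DREAM repressor complex, and E2F sites. These letters were sought on both strands in the 250 bases before the RefSeq start (GRCm38.p6). The 150 bases before the start of Cdc20, Kif11, Ube2c and Mcm6 are shown because all 4 genes fell together and the letters lie close to the start. Each is written 5′ to 3′ along its gene, and capitals mark these 3 kinds of letters as they read on either strand. Cdc20 lies on the minus strand at chr4:118437344-118437493, Kif11 on the plus strand at chr19:37376232-37376381, Ube2c on the plus strand at chr2:164769779-164769928 and Mcm6 on the minus strand at chr1:128359706-128359855.
Cdc20: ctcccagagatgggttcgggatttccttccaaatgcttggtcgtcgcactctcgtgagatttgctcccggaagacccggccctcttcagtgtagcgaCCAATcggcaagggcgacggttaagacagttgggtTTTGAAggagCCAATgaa
Kif11: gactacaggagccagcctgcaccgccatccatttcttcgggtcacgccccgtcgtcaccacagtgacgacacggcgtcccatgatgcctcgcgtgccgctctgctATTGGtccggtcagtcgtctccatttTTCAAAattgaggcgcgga
Ube2c: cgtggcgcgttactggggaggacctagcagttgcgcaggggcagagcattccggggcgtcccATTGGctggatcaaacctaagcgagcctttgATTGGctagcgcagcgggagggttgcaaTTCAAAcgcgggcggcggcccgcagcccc
Mcm6: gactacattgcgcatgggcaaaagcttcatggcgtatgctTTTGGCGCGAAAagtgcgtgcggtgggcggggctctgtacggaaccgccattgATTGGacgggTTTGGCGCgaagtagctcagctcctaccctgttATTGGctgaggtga

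TTTGAA began 18 bases before the start in Cdc20, 19 in Kif11 and 29 in Ube2c. CCAAT stood upstream of it in all 3, at 53, 45 and 57 bases, with a further copy at 8 bases in Cdc20 and at 88 in Ube2c. Mcm6 had no TTTGAA in these 150 bases, CCAAT at 57 and 14 bases, TTTGGCGC at 110 and 47 bases and TTTCGCGC at 106 bases, of which the first and the last overlap. CCAAT was in the 250 bases of 22 of 29 matched mitosis genes (75.9%) and of 15 of 25 matched replication genes (60.0%). The share of 32851 promoters in all was 33.8%. TTTGAA was in 9 of 29 mitosis genes (31.0%) and in 4 of 25 replication genes (16.0%). Of 14 matched retinoid genes 4 had it (28.6%), beside 16.0% of all promoters. An E2F site (TTTCCCGC, TTTGGCGC or TTTCGCGC) was in 8 of 25 replication genes (32.0%), in 1 of 29 mitosis genes and in 1.53% of all promoters. A listed gene counted if any of its promoters had the letters, so shares per gene and per promoter are unlike measures. A match describes letters and is not a site or a cause.

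Cdc20, the activator of the anaphase-promoting complex, was at 172, 181 and 185 TPM at day 0 and 29.8, 30.7 and 37.7 TPM at day 7. Mcm6, a subunit of the replicative helicase, went from 191, 197 and 197 TPM to 40.3, 38.6 and 44.4 TPM. Neither gene's groups overlapped, and the log2 fold changes were -2.83 (SE 0.08) and -2.61 (SE 0.05). Kif11, the kinesin that separates spindle poles, and Ube2c, a ubiquitin-conjugating enzyme of anaphase, fell by 2.81 and 2.35 on the log2 scale. Day 7 replicate 3 held the highest level of all 4 genes among the day 7 libraries, for Ube2c 61.8 TPM beside 56.3 and 51.1 TPM. None of the 4 was near 0 at day 7.

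Regulators of the G1 phase went both ways, with 6 of 15 higher and 8 lower. Ccnd1, the cyclin that links growth signals to division, fell from 82.4, 87.5 and 83.5 TPM to 6.49, 6.52 and 6.32 TPM. Cdkn1c, an inhibitor of cyclin-dependent kinases and an imprinted gene, rose from 17.7, 17.1 and 19.6 TPM to 301, 304 and 284 TPM. Cdkn1c lay below Ccnd1 in every day 0 library and above it in every day 7 library. Another inhibitor, Cdkn1b, rose by 1.32 on the log2 scale. Cdkn1a, an inhibitor that p53 induces, fell from 241 ± 5.72 to 85.9 ± 1.32 TPM.

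**Figure D3:**
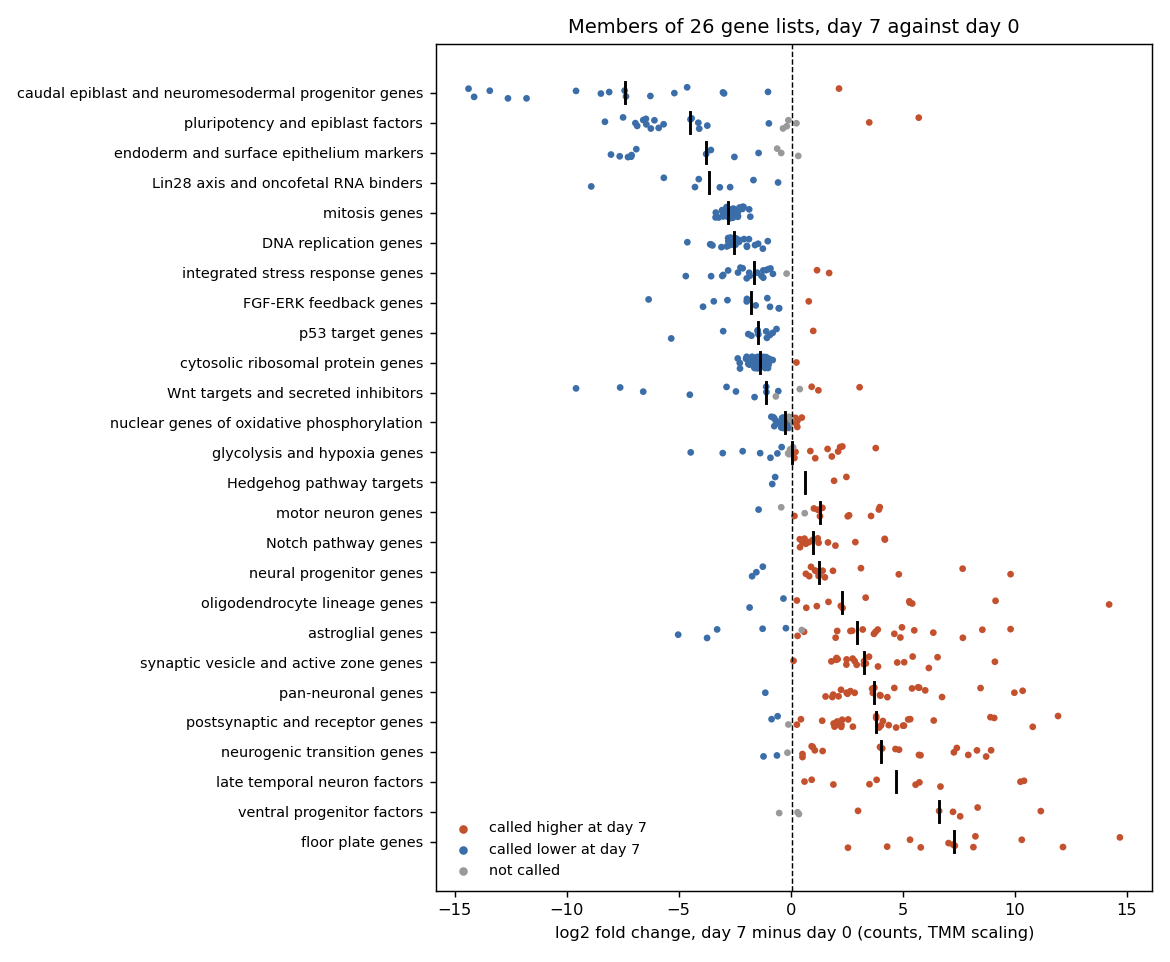
Log2 fold change at day 7 against day 0 of every tested member of 26 lists, with a tick at each list's median and a dashed line at the median of all genes tested, 0.05. Floor plate and pan-neuronal members lie to the right except for Nefh. Replication, mitosis and ribosomal protein members form tight groups to the left except for Rpl5.

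Neural progenitor genes rose in 15 of 18 members and fell in 3, with a median log2 fold change of 1.26. The largest rise was that of Fabp7, a lipid-binding protein of radial glia, from 2.09, 2.98 and 3.24 TPM to 3268, 3111 and 3186 TPM. The groups lay far apart, and the log2 fold change was 9.82 (SE 0.09, adjusted p = 1.61e-38). Sox2, a factor shared by pluripotent cells and neural progenitors, was at 58.9, 55.0 and 53.5 TPM at day 0 and 179, 176 and 167 TPM at day 7. Unlike Pou5f1 it rose, by 1.28 on the log2 scale (SE 0.05). Sox9, a factor of radial glia, rose from 2.65 ± 0.22 to 84.1 ± 1.45 TPM. The 3 members that fell were Sox3, Irx3 and Pax6. Pax6 was at 0.98, 1.17 and 1.15 TPM at day 0 and 0.87, 0.93 and 1.36 TPM at day 7, which overlap, while its counts fell by 1.24 on the log2 scale (adjusted p = 1.89e-06). On log2(TPM + 1) the difference was -0.04 (adjusted p = 0.761, limma).

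Ventral identity appeared on a blank start. Of 9 ventral progenitor factors 6 rose and none fell, and their summed level was 3.43 to 4.60 TPM at day 0 and 506 to 514 TPM at day 7. Nkx2-2, the homeobox factor of the p3 domain next to the floor plate, was at 0.05, 0.03 and 0.08 TPM at day 0 and 203, 197 and 209 TPM at day 7. It had 6 counts at day 0 in all and rose by 11.17 on the log2 scale (SE 0.15). Nkx6-1, a factor of the ventral domains, rose from 0.54 ± 0.11 to 69.3 ± 2.45 TPM. Olig2, the bHLH factor of motor neuron progenitors, went from 0.06, 0.17 and 0.09 TPM to 47.6, 44.1 and 44.4 TPM, and so stood below Nkx2-2 in every day 7 library. Nkx6-2, Nkx2-9 and Dbx2 did not pass, with log2 fold changes of 0.31, -0.51 and 0.37. Dorsal neural tube genes went both ways. Of 11 tested, 7 fell and 4 rose, and the median was -2.77, or -1.79 with genes that had no count on one day placed at their bound. Zic5, a zinc finger factor of dorsal cells and of the epiblast, fell by 5.38 on the log2 scale. Pax3, a dorsal progenitor factor, had no count at day 7, and Olig3, a bHLH factor of dorsal progenitors, rose by 6.65.

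The floor plate list was called higher in all 12 members, each by at least 2-fold, with a median log2 fold change of 7.29. Together these genes held 94.3 to 99.6 TPM at day 0 and 3050.4 to 3356 TPM at day 7. Shh, the Hedgehog ligand that the floor plate secretes, was at 0.21, 0.17 and 0.20 TPM at day 0 and 324, 335 and 301 TPM at day 7. Its log2 fold change was 10.32 (SE 0.18, adjusted p = 2.23e-32). Ntn1, the netrin that attracts commissural axons, was already at 25.4, 27.8 and 27.9 TPM at day 0 and reached 1425, 1417 and 1329 TPM. Spon1, a secreted adhesion protein of the floor plate, rose from 1.26, 1.27 and 1.33 TPM to 487, 483 and 444 TPM. Sulf1, which trims heparan sulfate, was the most abundant gene of the list at day 0 with 63.8 ± 1.77 TPM, and Ntn1 was at day 7. Foxa2, the forkhead factor of floor plate and endoderm, rose from 0.60, 0.72 and 0.84 TPM to 159.8, 166 and 152 TPM, while the endoderm genes Cldn6 and Cldn7 fell by 7.12 and 7.10 on the log2 scale.

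Neuronal genes stood high at day 7. Pan-neuronal genes rose in 24 of 25 members and fell in 1, with a median log2 fold change of 3.74, and their summed level was 621 to 635 TPM at day 0 and 8451 to 8945 TPM at day 7. Dcx, a microtubule protein of migrating young neurons, was at 0.12, 0.19 and 0.05 TPM at day 0 and 209.7, 212 and 216 TPM at day 7. Mapt, which encodes tau, went from 0.28, 0.35 and 0.31 TPM to 294, 290.1 and 311 TPM. Their log2 fold changes were 10.36 (SE 0.18) and 9.99 (SE 0.16), with no overlap. Tubb3, the neuronal beta-tubulin, started higher, at 55.6, 54.1 and 52.9 TPM, and rose to 1101, 1092 and 1170.2 TPM. The exception was Nefh, the heavy neurofilament chain of large mature axons, which fell from 11.8, 12.4 and 12.2 TPM to 6.82, 7.50 and 7.02 TPM. Of 11 tubulin isotypes 5 rose and 6 fell, with a median of -0.62. Tubb2b and Tuba1a, the isotypes of growing neurons, rose by 3.53 and 2.14 on the log2 scale. Tubb6 fell by 3.57 and Tuba4a by 5.50, the largest change of the list. By mean TPM Tuba1a gained 5262, from 1168 to 6431, more than any other gene.

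Of 22 genes of the step from progenitor to neuron, 19 rose and 2 fell, with a median of 4.06. Neurog3, a proneural bHLH factor of the p3 domain in the ventral cord, was at 0.07, 0.10 and 0.22 TPM at day 0 and 59.4, 54.9 and 57.8 TPM at day 7. Neurog2, the proneural factor of motor neuron progenitors, moved only from 0.42 ± 0.11 to 1.13 ± 0.13 TPM. Sim1, which marks V3 interneurons born from the p3 domain, went from 0.05, 0.08 and 0.02 TPM to 42.6, 40.0 and 42.1 TPM, and its log2 fold change was 9.59 (SE 0.21). Among the 15 tested interneuron factors 8 rose and 6 fell. Lhx1 rose by 4.62, while Evx1, of V0 neurons and also of the caudal epiblast, fell by 6.26 on the log2 scale, and Pax8, of inhibitory interneurons, and Tlx3 fell as well.

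Of 13 motor neuron genes 10 rose, 1 fell and 2 did not pass, with a median log2 fold change of 1.31. Their summed level was 76.6 to 80.8 TPM at day 0 and 249 to 263 TPM at day 7. Lmo4, a LIM-domain protein, was among the highest of them, at 30.3 ± 1.76 and 84.3 ± 0.78 TPM, while the defining factors and cholinergic genes given next stood lower at day 7. Mnx1, the homeobox factor of motor neurons, was at 5.30, 5.35 and 5.40 TPM at day 0 and 2.84, 2.87 and 2.20 TPM at day 7. It fell by 1.43 on the log2 scale (SE 0.11), and all day 7 libraries lay below all day 0 libraries. Isl1, a LIM factor of motor neurons, rose from 0.19, 0.20 and 0.32 TPM to 2.81, 4.38 and 3.51 TPM. Chat, which makes acetylcholine, reached 1.20 ± 0.21 TPM from 0.06 ± 0.02 TPM, and Slc18a3, which loads it into vesicles, 6.22 ± 0.36 from 2.09 ± 0.16 TPM. Lhx3 was at 0.20, 0.15 and 0.10 TPM and then 0.21, 0.25 and 0.45 TPM and did not pass (adjusted p = 0.152). Among visceral and hindbrain motor neuron factors 4 of 5 rose, among them the T-box gene Tbx20, from 0.63 ± 0.41 to 2.28 ± 0.16 TPM.

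Of 7 tested genes for glutamate, GABA and glycine transmission 5 rose and 1 fell. Slc17a6, the vesicular glutamate transporter VGLUT2, had no count at day 0 and stood at 17.0, 17.8 and 17.3 TPM at day 7, at least 363-fold higher. Gad1, which makes GABA, went the other way, from 6.11, 6.86 and 8.65 TPM to 0.14, 0.27 and 0.45 TPM, a log2 fold change of -4.89 (SE 0.30). Slc32a1, the vesicular transporter of GABA and glycine, was at 0.43 ± 0.09 and 1.43 ± 0.11 TPM. Of 8 tested serotonin and dopamine genes 6 rose and 2 fell, with a summed level of 11.8 to 12.5 TPM at day 0 and 28.8 to 40.9 TPM at day 7. Slc18a2, the vesicular monoamine transporter, rose from 0.26 ± 0.05 to 22.1 ± 5.05 TPM, a log2 fold change of 6.03 (SE 0.19). Th, the first enzyme of dopamine synthesis, went from 0.02 ± 0.03 to 2.28 ± 0.25 TPM and Fev, a factor of serotonergic neurons, from 1.24 ± 0.21 to 3.13 ± 0.79 TPM. Tph2, which makes serotonin, was at 0.17 ± 0.06 TPM at day 7.

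Synaptic and excitability genes rose broadly. All 21 synaptic vesicle and active zone genes were called higher, 20 of them by at least 2-fold, with a median of 3.27 and a summed level of 126 to 132 TPM at day 0 and 1443 to 1487 TPM at day 7. Syt1, the calcium sensor of release, went from 1.17, 1.16 and 1.12 TPM to 65.0, 65.7 and 62.8 TPM. Rims2, a scaffold of the active zone, moved least, by 0.13. Of 31 postsynaptic and receptor genes 28 rose and 2 fell, among them the nicotinic subunit Chrna7 by 0.85. Gria1, an AMPA receptor subunit, had 1 count at day 0 and was at 24.3, 21.6 and 22.8 TPM at day 7. Gria2, which sets the calcium permeability of that receptor, rose from 0.11 ± 0.08 to 63.2 ± 1.28 TPM. Voltage-gated channels rose in 19 of 23 members, among them Scn3a and Kcnd2 by 6.53 and 7.10 on the log2 scale, and Kcna1, a potassium channel of mature axons, fell by 2.10.

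Axon guidance genes rose in 23 of 27 members, with a median of 2.99. Dcc, the netrin receptor, went from 0.34, 0.46 and 0.45 TPM to 48.6, 45.4 and 47.8 TPM, and its ligand Ntn1 is described with the floor plate. Robo3, a receptor of the Robo family, and Slit1, a ligand of midline repulsion, rose by 9.32 and 8.23 on the log2 scale. Unc5b, a repulsive netrin receptor, fell by 2.43. Splicing factors of neural differentiation rose in 15 of 18 members. Those that fell were Ptbp1 and Rest, a splicing and a transcriptional repressor of neuronal genes, and Esrp1. Ptbp1 went from 483, 504 and 483 TPM to 242, 241 and 239 TPM, and its neuronal paralogue Ptbp2 rose from 85.9 ± 0.32 to 155 ± 5.00 TPM. On counts, which carry the test, their log2 fold changes were -1.58 and 0.22, so the tested rise of Ptbp2 was small. Ptbp1 was the more abundant of the pair on both days. Neuropeptide and dense core vesicle genes rose in 13 of 18 tested members and fell in 4, among them Scg2 and Chgb higher by 8.69 and 7.68 and Vgf and Penk lower by 4.39 and 2.08 on the log2 scale.

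The factors that mark late-born neurons rose in all 10 members, with a median of 4.71. Nfia and Nfib, nuclear factors I of late neurons and of glial progenitors, went up 5.75 and 6.69 on the log2 scale. Nfib was at 0.18, 0.20 and 0.58 TPM at day 0 and 32.6, 32.5 and 29.8 TPM at day 7. Neurod2, a bHLH factor of late neurons, had 1 count at day 0 and stood at 13.3, 14.9 and 13.4 TPM at day 7. The early factors Onecut1, Onecut2 and Onecut3 were also above day 0, by 3.34, 0.76 and 3.32.

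Genes of glia and their precursors rose, with exceptions such as Gfap and Mobp. Of 24 astroglial genes 18 rose and 5 fell, with a median of 2.98. Slc1a3, the glutamate transporter GLAST of radial glia and astrocytes, was at 6.59, 6.29 and 6.47 TPM at day 0 and 109.6, 115 and 104 TPM at day 7. Sparcl1, a secreted matrix protein of astroglia, rose from 0.67 ± 0.25 to 182 ± 14.6 TPM. S100b, a calcium-binding protein of more mature astroglia, had no count at day 0 and was at 2.19 ± 0.45 TPM at day 7, at least 16.1-fold higher. Aqp4, the astrocyte water channel, rose to 1.05 ± 0.15 TPM. Gfap, the intermediate filament of mature astrocytes, fell from 0.52, 0.89 and 0.58 TPM to 0.25, 0.05 and 0.07 TPM. Apoe, a lipid carrier, fell by 5.02 on the log2 scale. In the oligodendrocyte lineage 12 of 14 tested genes rose. Gpr17, a receptor of committed precursors, had no count at day 0 and was at 31.6, 28.7 and 30.4 TPM at day 7, at least 816-fold higher. Sox10, the factor of oligodendrocyte precursors and of neural crest, rose from 0.56 ± 0.18 to 28.5 ± 1.11 TPM. Mobp, a protein of mature myelin, was at 0.26 ± 0.10 and then 0.09 ± 0.07 TPM, and fell by 1.83 on the log2 scale, a call that was lost on log2(TPM + 1) (adjusted p = 0.193, limma).

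Motile cilium genes rose in 16 of 20 tested members and fell in 2. Foxj1, the forkhead factor that switches on motile cilia in floor plate and ependyma, went from 0.19, 0.23 and 0.24 TPM to 44.5, 48.2 and 42.9 TPM. Its log2 fold change was 7.33 (SE 0.18). Dnah9, a heavy chain of the dynein arms that beat cilia, rose by 9.48 on the log2 scale. Tekt4, a protein of the axoneme, had no count at day 0 and was at least 21.2-fold higher at day 7. Ccno, which acts in cells with many cilia, fell by 2.20 on the log2 scale, and Mcidas, another gene of such cells, was too low to test, with 0.12 TPM at day 0 and 0.02 TPM at day 7.

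Hox genes of group 1 fell, and those of groups 2 to 8 rose. The paralogue number counts position from the 3′ end, and higher numbers are expressed further back in the embryo. All 3 tested members of group 1 fell, and Hoxb1 went from 75.1, 86.0 and 76.0 TPM to 0.65, 0.76 and 0.55 TPM, a log2 fold change of -7.43 (SE 0.13). All 9 tested members of groups 2 to 4 rose, from 0.23 for Hoxb2 to 7.46 for Hoxd3. All 11 members of groups 5 to 8 rose by at least 2-fold, with a median of 3.79. Hoxa6 rose from 0.06, 0.07 and 0.21 TPM to 65.8, 64.0 and 68.1 TPM, and Hoxc6 from 2.68 ± 0.41 to 149 ± 7.69 TPM. Of the 16 members of groups 9 to 13 only 7 could be tested, and 2 rose, 2 fell and 3 did not pass. Without day 0 replicate 1, or without day 7 replicate 3, 1 member of these groups rose in place of 2. Hoxb9 was at 139, 143 and 131 TPM at day 0 and 190.0, 165 and 181 TPM at day 7, with a log2 fold change on counts of 0.01 (adjusted p = 0.973). Hoxb9 was thus high at both ends, although its day 7 TPM values all lay above those of day 0. Hoxc9, at 0.77 ± 0.09 TPM, and Hoxc13 stayed near the floor.

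**Figure D4:**
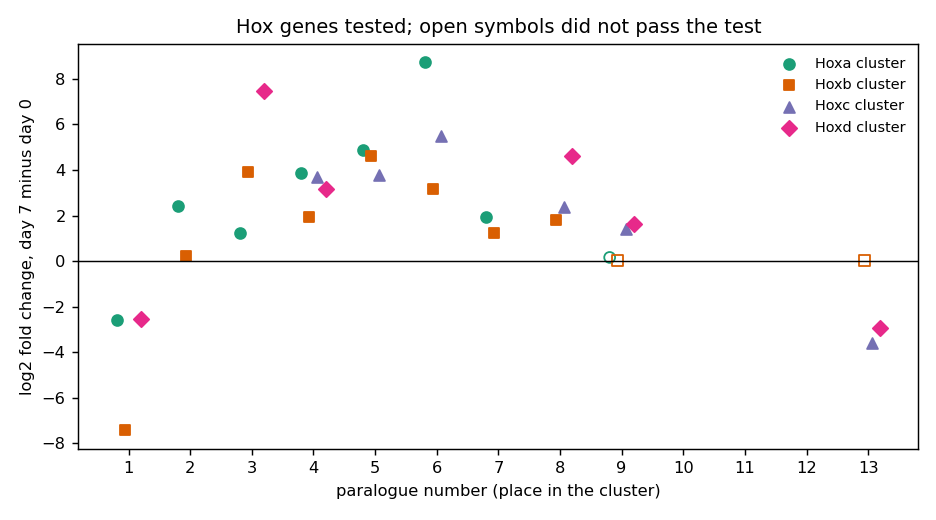
Log2 fold change at day 7 against day 0 by Hox paralogue number, with 1 colour for each of the 4 clusters and open symbols for genes that did not pass. Group 1 lies below 0, groups 2 to 8 above it, and groups 9 to 13 scatter around it.

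Hedgehog targets went both ways. Of 4 targets 2 rose, Ptch1 and Hhip, and 2 fell, of which 1 also fell with limma on log2(TPM + 1). Ptch1, the receptor that limits the signal, was at 21.1, 22.5 and 20.2 TPM at day 0 and 121, 116 and 112 TPM at day 7, a log2 fold change of 1.94 (SE 0.05). Gli1, a transcription factor and the usual readout of the pathway, went from 6.85, 6.23 and 6.39 TPM to 4.72, 3.76 and 4.93 TPM and fell by 0.82 on the log2 scale (SE 0.13). The mediators Gli2 and Gli3 fell by 3.87 and 4.11. Of the 8 receptors, co-receptors and Gli mediators 5 fell and 1 rose on counts, but only 2 fell when TPM was tested.

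Retinoid genes rose in 11 of 17 tested members and fell in 4. Rarb and Cyp26a1 are direct targets of retinoic acid known to carry a response element in the promoter, a direct repeat of a short motif with 5 bases between the copies. The 150 bases before each start are shown because both promoters hold GTTCANNNNNAGTTCA, sought on either strand in the 250 bases before the start. Of 32851 promoters 9 had these letters (0.0274%), and no other of the 14 matched genes of the list did. The letters are a narrow form of the repeat that fits both genes, so this match and its rarity follow largely from that choice. Capitals mark only this repeat, and sequences are from RefSeq (GRCm38.p6). Rarb lies on the minus strand at chr14:16575477-16575626 and Cyp26a1 on the plus strand at chr19:37697658-37697807.
Rarb: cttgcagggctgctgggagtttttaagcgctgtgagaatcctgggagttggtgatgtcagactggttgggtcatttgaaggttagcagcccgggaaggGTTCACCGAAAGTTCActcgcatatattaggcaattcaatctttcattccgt
Cyp26a1: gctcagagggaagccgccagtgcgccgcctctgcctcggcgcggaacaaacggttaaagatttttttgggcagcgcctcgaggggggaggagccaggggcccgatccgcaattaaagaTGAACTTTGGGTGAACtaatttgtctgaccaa

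The repeat began 52 bases before the start of Rarb and 32 before that of Cyp26a1. Rarb, a retinoic acid receptor, was at 0.78, 0.52 and 0.50 TPM at day 0 and 24.4, 24.4 and 25.1 TPM at day 7. Cyp26a1 went from 0.65, 0.48 and 0.49 TPM to 3.84, 3.00 and 2.61 TPM. Both rose with no overlap, by 4.97 (SE 0.10) and 2.16 (SE 0.20) on the log2 scale. Rarg, the receptor of the caudal embryo, fell from 104, 119.6 and 114 TPM to 6.35, 5.61 and 6.16 TPM. Dhrs3 and Cyp26b1, which lower retinoic acid by reduction of retinal and by oxidation, rose by 4.81 and 4.86, and Crabp2, which carries retinoic acid to its receptors, fell from 117 ± 3.69 to 35.8 ± 3.43 TPM.

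Target and feedback genes of Wnt and FGF, the signals that keep the caudal epiblast, mostly fell, and the activity of the signals was not measured. Of 15 Wnt targets and secreted inhibitors 10 fell and 3 rose. Axin2, a feedback inhibitor and general Wnt target, went from 115, 131 and 123 TPM to 19.9, 23.0 and 21.2 TPM, and Lef1, which acts with beta-catenin, fell by 6.58 on the log2 scale. The labels list CHIR99021 for the medium before day 0 and not after it. Its removal cannot be told apart here from time in culture, RA and SAG. Of 12 FGF-ERK feedback genes 11 fell. Etv4, an ETS factor induced by FGF, was at 152, 160.1 and 158 TPM at day 0 and 1.67, 2.63 and 3.06 TPM at day 7. Etv1 alone rose, by 0.81. BMP and TGF-beta response genes rose in 11 of 14 members, Id4 by 6.53 and Bmp4 from 2.14 ± 0.31 to 14.5 ± 1.23 TPM, while Id1, a direct BMP target, fell by 2.17. All 15 Notch pathway genes rose, 7 of them by at least 2-fold, with a median of 0.99. Hey1, a repressor downstream of Notch, went from 3.94, 4.14 and 3.97 TPM to 95.4, 102 and 94.5 TPM. Dtx4, a ubiquitin ligase of the pathway, rose by 2.89.

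Ribosomal protein genes fell in 75 of 76 members, 72 of them by at least 2-fold, with a median log2 fold change of -1.35. Their summed share was 149612 to 159448 TPM at day 0 and 74281 to 78148 TPM at day 7. Rps2, a protein of the small subunit, was at 3752, 3860.4 and 3925 TPM at day 0 and 986, 915 and 989 TPM at day 7. Rpl5 alone rose, by 0.26. By mean TPM Npm1, a nucleolar protein of ribosome assembly, fell by 4466, and Eef1a1, the translation elongation factor, fell by 5448, more than any other gene. The integrated stress response list fell in 19 of 22 members. Asns, which makes asparagine, went from 521, 502 and 529.5 TPM to 57.7, 62.2 and 62.9 TPM. Vldlr and Slc6a9 rose, and Ddit3 did not pass. Targets of p53 fell in 12 of 13 members, with a median of -1.44, and Pmaip1, which promotes cell death, fell by 5.33.

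Metabolic genes moved less in concert. The 2 glucose transporters of the glycolysis and hypoxia list fell steeply, Slc2a1 from 743, 752 and 787 TPM to 119, 123 and 113 TPM and Slc2a3 from 587, 599 and 585 TPM to 39.6, 41.4 and 33.0 TPM. The list as a whole had 10 higher and 7 lower of 22 and a median of 0.04, beside 0.05 over all genes. That median joins members that moved apart. Of the hypoxia response genes, Bnip3, Egln3, Vegfa, Ankrd37 and Ndrg1 rose by 2.21, 3.80, 1.65, 2.31 and 1.10 on the log2 scale. Pdk1 fell by 0.59, and Slc16a3 did not pass. The glycolytic enzymes Eno1 and Gapdh fell by 2.14 and 1.36. Hexokinase 2 (Hk2) did not pass, and Hk1, the hexokinase typical of brain, rose by 2.12. Nuclear genes of oxidative phosphorylation had 24 of 36 lower and a median of -0.24 on counts, but 7 lower, 19 higher and a median of 0.13 when TPM was tested, so no direction is given for them. Sterol and fatty acid synthesis genes fell in 18 of 22 members on counts and in 11 on TPM, with medians of -0.67 and -0.26. Imprinted genes rose in 13 of 20, Nnat from 92.8, 91.9 and 90.4 TPM to 1371, 1349 and 1460.4 TPM, and Igf2 and H19, which share a control region, by 2.93 and 3.71 on the log2 scale. Of 17 clock genes 11 rose and 4 fell, and Hlf and Per2, which follow a daily rhythm in many tissues, rose by 3.56 and 3.20.

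Markers of other cell types were present beside the neural genes, and their part in the results above was not tested. Mesenchyme and muscle markers rose in 10 of 14 tested members, and their summed level was 123 to 133 TPM at day 0 and 1049 to 1145 TPM at day 7. Col3a1, a fibrillar collagen of mesenchyme, was at 1.65, 1.32 and 2.10 TPM at day 0 and 496, 527 and 464 TPM at day 7. Dcn, a proteoglycan of connective tissue, rose from 1.08 ± 0.37 to 178 ± 14.7 TPM. The muscle genes Des, Actc1 and Myh3 fell, and Myod1 and Myog, which define muscle precursors, were at 0.03 and 0.00 TPM at day 7. Endothelial markers rose in 9 of 17 and fell in 7, with summed levels of 108 to 114 TPM at day 0 and 119.6 to 131 TPM at day 7. Cdh5, the cadherin of endothelium, went from 0.24, 0.19 and 0.10 TPM to 16.6, 14.7 and 16.5 TPM. Of 16 blood and microglia markers 9 were tested and 3 fell, and Hba-x, Hbb-bh1, Hbb-y and Alas2 had no count in the 6 libraries. The microglial genes Cx3cr1 and Tyrobp were at 0.00 TPM at day 7, and Csf1r, Aif1 and C1qa at 0.09, 0.11 and 0.11 TPM. All of these were too low to test. Neural crest markers rose in 4 of 8 tested members and fell in 3, with summed levels of 16.1 to 17.8 TPM and then 45.6 to 47.2 TPM, and Foxd3, which defines early crest, was at 0.07 and 0.05 TPM. Paraxial mesoderm genes rose in 5 of 10 tested members and fell in 4. Their summed level was 19.9 to 22.6 TPM at day 0 and 44.5 to 48.3 TPM at day 7. The defining gene Tbx6 fell by 1.87 on the log2 scale, and Msgn1, too low to test, had no count at day 7. Foxc2, Pax1, Meox2 and Foxc1 rose by 5.07, 4.65, 3.85 and 1.59, and Uncx, of somites and also of neurons, rose by 7.98.

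Comparing the ends hides genes that came and went. In the libraries between, 152 of the 17990 genes had a mean CPM (counts scaled to a fixed library total) at least 4 times that of both ends, with at least 10 CPM, and 27 of these were not called between day 0 and day 7. The times with the most such peaks were day 3 with 36 genes and day 1 with 27. All 4 Hedgehog targets were among them, as were 9 of 13 motor neuron genes, 5 of 18 neural progenitor genes and all 3 Onecut factors. Pax6 was at 107 TPM at day 0.5, beside 1.10 and 1.05 TPM at the ends. Nkx2-9, a ventral homeobox factor, was at 144 TPM at day 1 and did not pass between the ends (adjusted p = 0.255). Gli1 reached 112 TPM and Ptch1 619.9 TPM at day 1. Olig2 was highest at day 2 by mean TPM, at 180.2 TPM, and at day 1.5 by mean CPM. Isl1 peaked at 76.2 TPM and Neurog2 at 103 TPM at day 2.5, Mnx1 at 28.7 TPM, Lhx3 at 25.7 TPM, Lhx4 at 42.1 TPM and Chat at 9.77 TPM at day 3, and Slc18a3 at 84.5 TPM at day 3.5. Sst, the neuropeptide somatostatin, reached 301 TPM at day 2.5 and was at 2.31 ± 0.66 TPM at day 7.

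**Figure D5:**
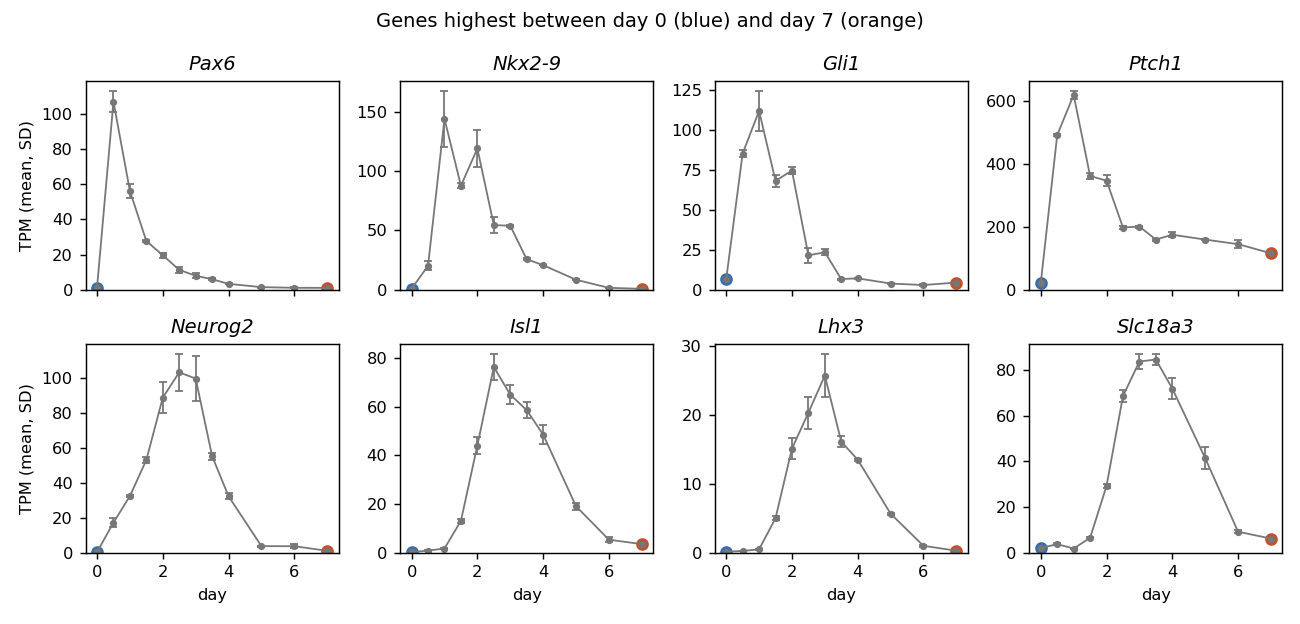
Mean TPM with SD (n = 3) against day for 8 genes that were highest between the ends. Each reaches its highest mean between day 0.5 and day 3.5, from Pax6 first to Slc18a3 last.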

How the data were processed

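The authors extracted RNA with an RNeasy Plus Micro kit and used a KAPA mRNA kit for the libraries, per the labels' protocols. The submitters' processing notes name bcl2fastq 2.20.0, RSEM and GRCm38. No source used here gives the annotation release or the strand setting. The authors deposited RSEM expected counts, estimated numbers of reads per gene, of which 6.87% were not whole. A second deposited table holds TPM, and its columns sum to 999999.21 to 1000000.98. Symbols were matched for 51633 of 51912 gene IDs, with 99.925% of counts.

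Counts were rounded to whole numbers, and filterByExpr by time point kept 17990 of 32047 genes. One fit with edgeR 4.0.16 in R 4.3.3 (TMM factors 0.924 to 1.06, glmQLFit, glmQLFTest) held all 36 libraries, with 24 residual degrees of freedom. Calls have a Benjamini-Hochberg adjusted p under 0.05 over all genes. The printed SE is approximate: the log2 fold change over the square root of F, without sign. A fold against a group without counts is a bound against 3 counts per library, for counting error only. With such genes at their bound, 2 of 60 list medians moved by over 0.01. No replicates were identical (chi-square per degree of freedom 4.31 to 49.8). Members and the 60 gene lists were chosen with earlier results of these data known. Named genes were the 10 largest rises and falls, the 10 largest gains and losses in TPM, up to 6 called members of each list in each direction, members that did not pass or went against their list, and the 10 clearest peaks between the ends. Alternatives were other scalings, filters and tools (DESeq2 1.42.0, limma 3.58.1 on log2(TPM + 1) and log2(TPM + 0.1)), each library left out, a replicate block, and day 6 in place of day 7. By the exons of GENCODE M21, Ddit3, Hoxd3, Igf2, Mobp, Onecut1 and Tuba1a share sequence with a gene on the same strand and Actl6a, Alas2, Axin2, Bmp4, Ccnd1, Cdc20, Cdkn1a, Cdkn1c, Des, Dnah9, Dnmt3a, Esrp1, Evx1, Gli1, Gli3, Gm42418, Gpr17, Hk1, Hmga1, Hmga2, Hoxb2, Id4, Irx3, Lef1, Lhx3, Lin28a, Meg3, Mxd4, Neurog3, Nfia, Nkx1-2, Nkx2-2, Nkx6-2, Pax8, Penk, Pou5f1, Psmb9, Ptbp1, Rarb, Rpl5, Rps2, Shh, Slc18a2, Slc2a1, Slc32a1, Slc6a9, Trim71 and Ube2c with one on the other, and their values are uncertain.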

Additional observations from a re-analysis of the deposited data

How the results depend on the processing

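The count of called genes, 15337, was 15142 with DESeq2, 15335 with median-of-ratios scaling, 16455 of 32047 genes with no filter, 14870 of 16856 with only the 6 libraries fitted and 15085 to 15201 without any one library. Deviations of same-numbered replicates had correlations of 0.0456, -0.00481 and 0.0375, beside -0.0519 to 0.0128 for the other pairs. These low values do not settle whether the numbers pair samples. With a replicate block 15320 genes were called, 7918 higher and 7402 lower. Testing TPM instead of counts gave 9556 higher and 5501 lower (pseudocount 1) or 9555 and 5464 (pseudocount 0.1). It also took the oxidative phosphorylation genes called lower from 24 to 7 or 6, the sterol genes from 18 to 11, the progenitor BAF subunits from 5 to 3 and the Hedgehog receptors and mediators from 5 to 2, where the median shift of a gene's log2 fold change was 0.34 (pseudocount 1) or 0.36 (0.1). Of Hox groups 9 to 13, 1 member in place of 2 was called higher with only the 6 libraries, without day 0 replicate 1 or without day 7 replicate 3, and 4 were with day 6 in place of day 7. With only the 6 libraries 1 blood marker in place of 3 was called lower. At a 2-fold threshold 434 genes in place of 152 were above both ends. Of the named genes, Tdgf1 turned from -0.34 to 2.29 in log2 fold change with day 6, Scn8a from 0.66 to -0.62 or -0.66 on TPM, and Gm42418 ranged from -0.55 to 1.33 with a library left out, the 1.33 without day 0 replicate 2. The causes were not tested. Depth of at least 29187652 counts leaves genes with no count at one end, such as Cdx1 or Gpr17, with a bound and not a fold.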

Other observations

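Several groups not described above also moved. Of the 9 Myc family genes 8 rose and 1 fell. Mxd4, an antagonist that competes with Myc for its partner Max, rose from 4.57, 4.26 and 3.59 TPM to 69.0, 73.7 and 69.4 TPM. Myc itself rose from 6.79 ± 0.44 to 22.3 ± 0.75 TPM (mean ± SD, n = 3). Of 9 tested interferon and antigen presentation genes 7 fell and 1 rose. B2m, the light chain of class I antigen-presenting molecules, and Psmb9, an immunoproteasome subunit, fell by 1.29 and 3.01 on the log2 scale. Basement membrane genes went both ways, with 5 of 10 higher and 4 lower, Sparc up by 2.53 and Lama5 down by 4.35.

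Some genes dipped between the ends, a count that was added after the data were seen and has no test. In 108 of 17990 genes the mean CPM at some time between was at least 4 times below both ends, most often at day 1.5 (44 genes). Meg3, an imprinted noncoding RNA, was at 347 CPM at day 0, 60.9 CPM at day 1.5 and 1574 CPM at day 7. Ldha, which makes lactate, was at 739, 90.6 and 711 CPM at days 0, 4 and 7, and was among 5 of 22 glycolysis and hypoxia genes with such a dip.

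Counts and TPM disagreed in direction, each by at least 0.5 in log2 with a call, for 1 gene. Scn8a, a sodium channel, rose by 0.66 on counts (adjusted p = 1.32e-08, edgeR's quasi-likelihood test) and fell by 0.62 on log2(TPM + 1) (adjusted p = 8.37e-07, limma). Gm42418 varied more between replicates than between days, at 2263, 25545 and 6475 TPM at day 0 and 5201, 18172 and 18933 TPM at day 7. The causes were not tested.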
